A study of Mus musculus with 2 samples.

Results

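The genes described are those of the aquaporins, the water channels of cell membranes. They were taken by symbol from a gene table of mouse tongue made by RNA-sequencing. The list named 9 genes, *Aqp1*, *Aqp2*, *Aqp3*, *Aqp4*, *Aqp5*, *Aqp7*, *Aqp8*, *Aqp9* and *Aqp11*, and 8 of them had a row among the 18498 rows of the table. *Aqp8* had no row in the table used and was not analysed here. The table gives 1 value per gene for each of 2 poly(A) RNA libraries, 1 from the circumvallate papillae (CvP), the taste bud-rich structures at the back of the tongue, and 1 from lingual epithelium without papillae (Epi). Both came from wild-type male C57BL/6J mice of 12 to 30 weeks kept on normal chow, and each library pooled the RNA of 20 or more animals. The methods say, for a sample used in RT-PCR, that CvP tissue took in the epithelium around the taste buds. The unit is RPKM, the number of reads per kilobase of exon model and per 1000000 mapped reads.

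Aquaporins assemble as tetramers in which every subunit has its own pore. A pair of short loops, each with an Asn-Pro-Ala box, meet in the middle of that pore and help to let water through in single file while holding back protons. The classical members *Aqp1*, *Aqp2*, *Aqp4* and *Aqp5* carry mainly water, the aquaglyceroporins *Aqp3*, *Aqp7* and *Aqp9* also carry glycerol, and *Aqp11* belongs to a divergent group found on intracellular membranes. In stratified epithelia *Aqp3* is known as the channel of the basal and lower layers, and in salivary glands *Aqp5* is the channel of the acinar cells that pass water into saliva.

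The box sequences are shown for the member with the highest level, for the pair with the next highest levels in the CvP, for *Aqp1*, which was higher in the Epi, and for *Aqp7*, whose boxes, like the first of *Aqp11*, depart from the usual letters. Each line is the coding strand from 5′ to 3′ on NCBI37/mm9, 30 bases long, with the codons of the box in capitals. The first box of *Aqp3* is read across the junction of exons 2 and 3 of 6, on the minus strand within chr4:41041843-41042178, and its second lies in exon 5 at chr4:41040865-41040894. Those of *Aqp5* lie on the plus strand in exon 1 of 4 at chr15:99421895-99421924 and in exon 3 at chr15:99423689-99423718. Those of *Aqp1* lie on the plus strand in exon 1 of 4 at chr6:55286698-55286727 and in exon 3 at chr6:55295819-55295848. Those of *Aqp11* lie on the minus strand in exon 1 of 3 at chr7:104886186-104886215 and in exon 2 at chr7:104877554-104877583. Of *Aqp7*, on the minus strand, the first box is read across the junction of exons 4 and 5 of 8 within chr4:40982635-40983047 and the second lies in exon 7 at chr4:40981837-40981866.
Aqp3 first box: ggtgcccacttgAACCCCGCTgtgaccttc
Aqp3 second box: ggctatgccgtcAACCCTGCCcgtgacttt
Aqp5 first box: ggtggccacatcAATCCGGCCattactctg
Aqp5 second box: ggctgttccatgAACCCAGCCcgatctttc
Aqp1 first box: ggtgctcacctcAACCCTGCGgtcacactg
Aqp1 second box: ggctgcggtatcAACCCTGCCcggtcattt
Aqp11 first box: ggcacagctagcAACCCGTGCggcgtgatg
Aqp11 second box: ggagcattgtttAACCCAGCGctggcactt
Aqp7 first box: ggggcccacatgAATGCCGCAgtgactttc
Aqp7 second box: ggatatgcaatcAACCCATCCcgtgacctg
In *Aqp3*, *Aqp5* and *Aqp1* both boxes read Asn-Pro-Ala, as they do in *Aqp2* and *Aqp9*. The first box of *Aqp11* reads Asn-Pro-Cys, and the boxes of *Aqp7* read Asn-Ala-Ala and Asn-Pro-Ser. Over the translated coding sequences the 28 pairs of the 8 genes shared from 20.5% to 65.3% of aligned residues, with a median of 31.7%. The closest pair was *Aqp2* with *Aqp5*, at 65.3%, and the most distant was *Aqp9* with *Aqp11*, at 20.5%. Even between *Aqp2* and *Aqp5* no window of 75 bases, the length of a read, came closer than 13 mismatches, so that none of the 28 pairs had a read-length window within 2 mismatches.

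With 1 library per tissue there was no replicate, so no p-value was calculated, and each comparison is between these libraries and not between the tissues as populations. In such bulk RNA, fewer cells of a type and less RNA per cell cannot be told apart. From the worth of 1 read in the shortest rows, the CvP library held about 28375300 mapped reads and the Epi library about 27908500. Ratios below are CvP/Epi quotients of RPKM, with a 95% exact (Clopper-Pearson) interval from estimated reads that covers counting error only. The median ratio over the 10363 rows with an RPKM of 1 or more on both sides was 1.31, so that a gene at the middle of the table was already somewhat higher in the CvP. Taste cell markers mostly followed the labels. Of type I markers 3 of 4 were more than 3-fold higher in the CvP, of type II markers 6 of 7, and of type III markers 6 of 6, among them *Gnat3* (127 against 0.03 RPKM) and *Pkd1l3* (47.6 against 0.40 RPKM). The other type I marker, *Slc1a3*, was more than 3-fold higher in the Epi (1.04 against 3.82 RPKM). Of basal keratinocyte markers 0 of 8 passed 3-fold toward the CvP and 1 toward the Epi. Of suprabasal markers 0 of 9 were higher in the CvP by that fold and 5 in the Epi. The summed level of the latter list was 32205 RPKM in the CvP and 86146 RPKM in the Epi. Over all rows with 1 RPKM or more in the CvP or the Epi, 15.9% were above 3-fold in the CvP and 1.96% in the Epi.

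Among the aquaporin genes, *Aqp3* stood far above the rest at the same level on both sides, while *Aqp4*, *Aqp5* and *Aqp11* were higher in the CvP and *Aqp1* and *Aqp9* were higher in the Epi. Only 4 of the 8 genes, *Aqp3*, *Aqp4*, *Aqp5* and *Aqp11*, reached 1 RPKM in the CvP or the Epi, and 3 of these 4 passed that filter through the CvP alone, so their direction is partly set by the filter. Above 3-fold were *Aqp4*, *Aqp5* and *Aqp11* in the CvP, and 0 of the 4 in the Epi. In the whole table, 15.9% of the 12549 rows past the filter were above 3-fold in the CvP, and 1.96% in the Epi. Counts in the gene lists carry the same limit, since listed genes could also pass the filter through 1 library alone. Without the filter, 4 of 8 genes were above 3-fold in the CvP, where *Aqp2* joined with 1 read against 0, and 1 of 8, *Aqp1*, in the Epi, beside 26.1% and 4.7% of all rows above 0. None of the 8 had a CvP RPKM above 10 together with a ratio above 3, thresholds that 2.35% of all rows of the table passed. The median log2 ratio, with 0.1 added to each RPKM, which understates the change of low genes, was 3.06 over the 4 genes and 0.19 over all 8, against 0.50 over all rows past the filter and 0.50 over all rows above 0.

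**Figure D1:**
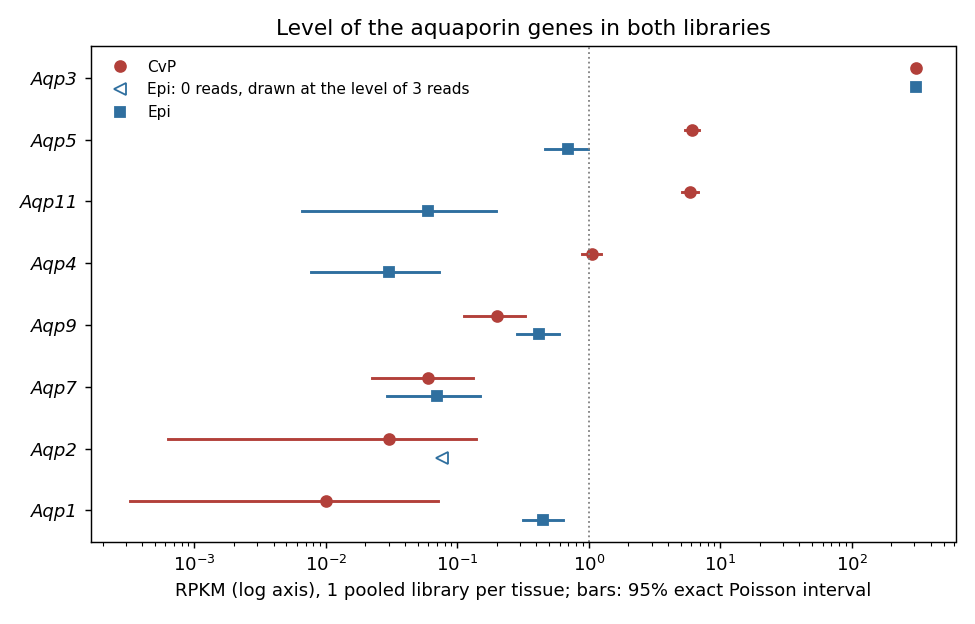
RPKM of each aquaporin gene (horizontal axis, log scale) in the CvP (circles) and Epi (squares) libraries, 1 point per library with the 95% exact Poisson interval of its reads, an open triangle for 0 Epi reads of *Aqp2* at the level of 3 reads, and a dotted line at 1 RPKM. *Aqp3* lies near 307 RPKM on both sides, *Aqp5* lies at 6.09 RPKM and *Aqp11* at 5.90 RPKM in the CvP, each apart from its Epi interval, and *Aqp1* is the gene whose Epi interval lies apart above that of the CvP.

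*Aqp3*, the glycerol and water channel of the basal layers of epithelia, had 307 RPKM in the CvP and 306 RPKM in the Epi. Both libraries were equally high, and the ratio was 1.00 (0.979 to 1.02). Its position is bases 41039757 to 41045216 of chromosome 4, minus strand (NCBI37/mm9, as for all positions). It stood above 99.4% of all rows in the CvP and above 99.2% in the Epi, and exceeded the next aquaporin, *Aqp5* in both cases, by 50.4 times in the CvP and 444 times in the Epi. The equality holds on the deposited scale: divided by the median ratio of the table the *Aqp3* ratio was 0.763, and with both libraries rescaled to one sum of RPKM it was 1.21, so the direction turns with the scaling. Among 204 rows within 2-fold of its level, the median ratio was 0.764, with quartiles of 0.621 and 1.10, and 28.9% had a higher ratio than *Aqp3*.

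The listed length of *Aqp3*, 5.82 kb, was 3.30 times the 1.765 kb of its longest annotated coding transcript and close to the whole span of 5.46 kb from its first to its last exon. If all its reads lay in that transcript, the levels would be 1012 and 1010 RPKM, with the ratio as before. Such long listed lengths were common at high levels. Of 319 rows with 100 RPKM or more on both sides and an annotated length, 34.8% were listed at more than 3 times that length. The lengths of *Aqp4*, *Aqp5* and *Aqp11* were listed at about their annotated values. Where in the listed length the reads of *Aqp3* lie was not tested, so that its level beside other members depends on the length taken.

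The genes nearest to *Aqp3* in both libraries together, by the distance of log2(RPKM + 0.1), were *Cd24a*, *Krt23* and *Prdx1*. *Cd24a*, which encodes a small surface glycoprotein, had 287 RPKM in the CvP and 316 RPKM in the Epi, at a distance of 0.10. The keratin gene *Krt23* had 298 and 265 RPKM, at 0.21, and the peroxiredoxin gene *Prdx1* had 272 and 280 RPKM, at 0.22. With only 2 libraries this likeness says that the levels are close and nothing more. Keratins of the basal layer, where *Aqp3* is known to lie, did not share its equality. *Krt5* had 1506 RPKM in the CvP and 1271 RPKM in the Epi, *Krt15* had 497 and 784 RPKM, and *Krt14* had 295 and 1140 RPKM. Their ratios thus lay on both sides of that of *Aqp3*. Of all 8 basal markers 6 were higher in the CvP, all but *Krt14* and *Krt15*, and the median log2 ratio was 0.45. That was near the 0.50 of all rows past the filter.

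**Figure D2:**
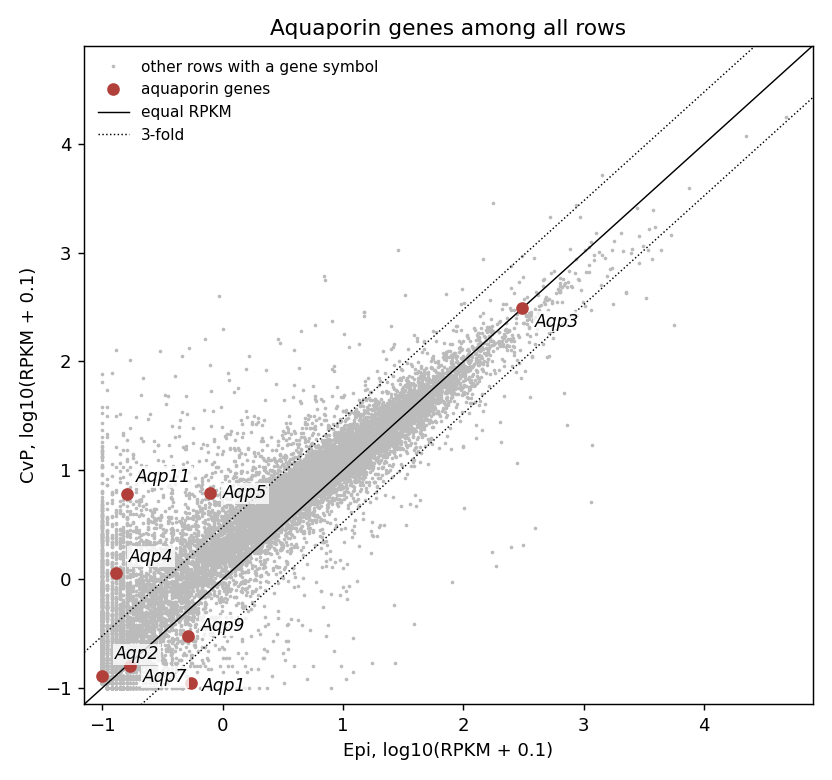
Log10(RPKM + 0.1) in the Epi (horizontal axis) against that in the CvP (vertical axis) for the aquaporin genes (large points) over the other rows with a symbol (small points), with lines of equal level and of 3-fold difference. *Aqp3* sits on the line of equal level at the upper end, *Aqp4*, *Aqp5* and *Aqp11* lie above the 3-fold line, and *Aqp1* lies below it.

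*Aqp5*, the channel of salivary acini and other secretory epithelia, had 6.09 RPKM in the CvP and 0.69 RPKM in the Epi, from about 268 and 30 reads. The CvP value was the higher, by 8.83 times (6.01 to 13.3), or 6.72 times when divided by the median ratio of the table. The gene lies on chromosome 15 from 99421459 to 99425260 on the plus strand, next to *Aqp2*. Within the CvP its level was moderate, above 59.1% of all rows.

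Genes of salivary gland divided into opposite directions, and the part of gland tissue in the *Aqp5* values was not tested. Of the 15 markers with a row, 10 passed the filter. More than 3-fold higher in the Epi were 7 and in the CvP 2, beside 1.96% and 15.9% of all rows past the filter. The 15 had a summed level of 101 RPKM in the CvP against 441 RPKM in the Epi. Lingual lipase *Lipf* had 1.96 and 313 RPKM and salivary amylase *Amy1* had 0.85 and 80.5 RPKM, both far higher in the Epi, where *Aqp5* was low. The mucosal scavenger receptor gene *Dmbt1*, in contrast, had 82.3 RPKM in the CvP and 8.33 RPKM in the Epi. The polymeric immunoglobulin receptor gene *Pigr*, which moves antibodies across secretory cells, had 12.0 and 0.54 RPKM. The *Aqp5* difference thus went the way of *Dmbt1* and *Pigr* and against that of *Lipf* and *Amy1*.

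Genes of fluid secretion, the ion transport that water follows through *Aqp5* in glands, were counted beside it. Of 15 listed genes, all with a row, 10 passed the filter, and their median log2 ratio was 1.36, beside 0.50 over all rows past the filter. More than 3-fold higher in the CvP were 5 of them, and 0 in the Epi, beside 15.9% and 1.96% of all rows. The Na-K-Cl cotransporter gene *Slc12a2* had 45.3 RPKM in the CvP and 6.47 RPKM in the Epi, a ratio of 6.99 (6.58 to 7.44). The sodium pump beta subunit gene *Atp1b1* was also higher in the CvP, with 35.1 against 0.73 RPKM. The calcium-activated chloride channel gene *Ano1* had 13.3 and 3.27 RPKM, a ratio of 4.06 (3.64 to 4.52). The chloride channel gene *Cftr* had 6.06 RPKM in the CvP and 0 reads in the Epi. *Atp1b1* and *Cftr* passed the filter through the CvP alone. These genes also serve cells other than gland cells, and the list does not separate them.

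*Aqp11*, an aquaporin of intracellular membranes, had 5.90 RPKM in the CvP and 0.06 RPKM in the Epi, from about 221 and 2 reads. It was the member with the highest ratio, 98.3 (29.7 to 903), of which the width comes from the 2 Epi reads. Of the rows past the filter, 97.2% had a lower ratio. The gene lies on chromosome 7 from 104874889 to 104886757 on the minus strand. In the CvP its level was near that of *Aqp5*, and the intervals of both levels overlapped (5.14 to 6.72 RPKM for *Aqp11* and 5.38 to 6.86 RPKM for *Aqp5*). In the Epi they stood apart, at 0.00656 to 0.196 RPKM for *Aqp11* and 0.468 to 0.989 RPKM for *Aqp5*. With 1 added to each RPKM the ratio was 6.51.

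**Figure D3:**
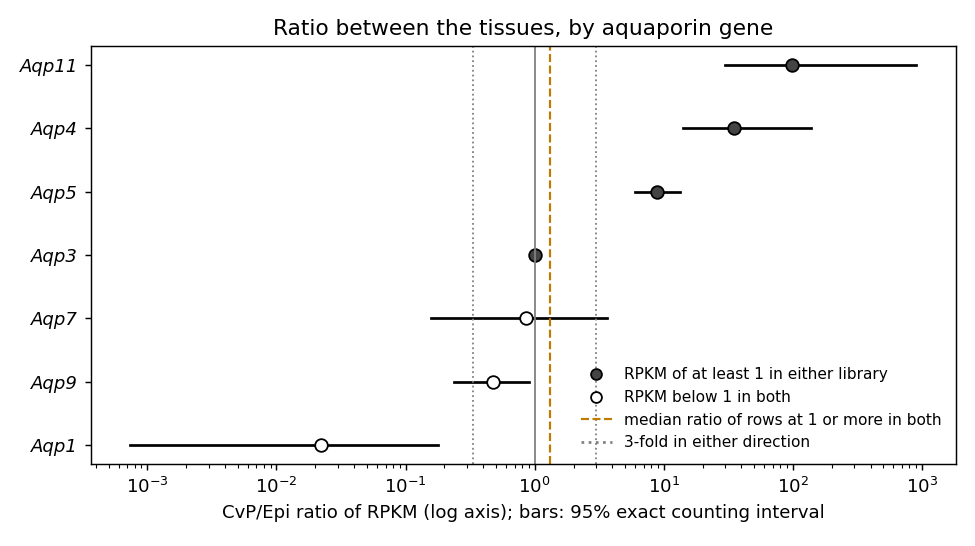
CvP/Epi ratio of RPKM (horizontal axis, log scale) for 7 aquaporin genes with 95% counting intervals, filled where the CvP or the Epi reached 1 RPKM, with lines at equal level (solid), at 3-fold (dotted) and at the median ratio of 1.31 (dashed). The intervals of *Aqp4*, *Aqp5* and *Aqp11* lie wholly above 3, those of *Aqp1* and *Aqp9* wholly below 1, and *Aqp3* sits at 1.00, left of the dashed line.

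*Aqp4*, the water channel of astrocyte endfeet that is also found in the membrane of fast muscle fibres, had 1.05 RPKM in the CvP and 0.03 RPKM in the Epi, from about 151 and 4 reads. The CvP was higher by 35 times (14.2 to 138). This was a low level even there, and with 1 added to each RPKM the ratio was 1.99. *Aqp4* occupies bases 15547903 to 15562193 of chromosome 18, minus strand. Markers of skeletal muscle went the other way from *Aqp4*. Of 12 with a row 9 passed the filter, most of them through the Epi alone, so that their direction is partly set by the filter. All 9 were more than 3-fold higher in the Epi, beside 1.96% of all rows past the filter. The 12 had a summed level of 8.81 RPKM in the CvP and 80.3 RPKM in the Epi, and *Acta1*, the skeletal actin gene, had 0.86 and 12.9 RPKM. Of the 8 markers of glia and nerve 3 passed the filter. More than 3-fold higher in the CvP were 2, both past the filter through the CvP alone, beside 15.9% of all rows past it. The 8 had a summed level of 16.8 against 10.3 RPKM. The myelin gene *Mbp* had 10.3 and 8.94 RPKM, and *Gfap*, which defines astrocytes and some Schwann cells, had 0.15 and 0.03 RPKM. The part of nerve or glia in the *Aqp4* values was not tested.

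*Aqp4* is held at the membrane by the dystrophin complex, and a list of partners and regulators of aquaporins was counted beside it. Of the 16 genes 14 had a row and 11 passed the filter. The median log2 ratio of 0.55 was near the 0.50 of all rows past the filter. Above 3-fold toward the CvP was 1 of the 11, and toward the Epi 0, beside 15.9% and 1.96% of those rows. The one gene was *Dtna*, which encodes the complex member dystrobrevin alpha, with 2.92 RPKM in the CvP and 0.20 RPKM in the Epi, a ratio of 14.6 (10.5 to 21.3). Dystrophin itself, *Dmd*, was below the filter with 0.88 and 0.11 RPKM, a ratio of 8.0 (5.75 to 11.1). Both were thus higher in the CvP, as *Aqp4* was. Elsewhere in the list, the *Aqp5*-linked calcium channel gene *Trpv4* had 7.88 and 5.35 RPKM, and the vasopressin receptor gene *Avpr2*, which controls *Aqp2* in the kidney, had 0.21 and 0.04 RPKM.

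*Aqp1*, the water channel of red cells and of capillary endothelium, had 0.01 RPKM in the CvP and 0.45 RPKM in the Epi, from about 1 and 33 reads. It was the one member more than 3-fold higher in the Epi, by 45 times (5.62 to 1365), though below 1 RPKM on both sides. With 0.1 added to each RPKM the CvP/Epi ratio was 0.2, and with 1 added it was 0.697, which ends the call of 3-fold. The gene lies on chromosome 6 from 55286293 to 55298549 on the plus strand. Endothelial markers were low in both libraries. Of the 11 with a row 2 passed the filter, both through the CvP alone, so that their direction is partly set by the filter. Both were more than 3-fold higher in the CvP, beside 15.9% of all rows past the filter. The sum of the 11 was 8.05 RPKM in the CvP and 1.19 RPKM in the Epi. Those 2 were *Vwf*, which encodes von Willebrand factor, with 4.45 and 0.09 RPKM, and the angiopoietin receptor gene *Tek*, with 2.49 and 0.07 RPKM. The other 9 lay between 0 and 0.28 RPKM in the CvP and between 0.02 and 0.27 RPKM in the Epi, with no common direction. *Cdh5*, *Tie1* and *Flt1* had 0.02, 0.03 and 0.04 RPKM in the CvP and 0.06, 0.14 and 0.11 RPKM in the Epi, whereas *Pecam1*, *Eng* and *Kdr* had 0.28, 0.19 and 0.04 RPKM in the CvP and 0.12, 0.05 and 0.02 RPKM in the Epi. Of the 7 erythrocyte markers with a row only *Alas2*, the haem synthesis gene of red cells, passed the filter, with 1.37 and 0.22 RPKM, and the 7 summed to 2.77 and 2.24 RPKM. The globin genes *Hba-a1* and *Hba-a2*, near-identical copies whose reads cannot be assigned with certainty, had 0.32 RPKM each in the CvP and 0.77 and 0.76 RPKM in the Epi. The part of vessels and blood in the *Aqp1* values was not tested.

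*Aqp9*, a glycerol channel of liver that is also found in neutrophils, had 0.20 RPKM in the CvP and 0.42 RPKM in the Epi, from about 15 and 31 reads. The Epi was higher, by 2.1 times (1.10 to 4.19), at a level below 1 RPKM on both sides. The gene lies on chromosome 9 from 70958468 to 71011096 on the minus strand. Of the 10 neutrophil markers with a row 6 passed the filter, some of them, such as *Csf3r*, through the CvP alone. All 6 were more than 3-fold higher in the CvP, beside 15.9% of all rows past the filter. The 10 summed to 1115 RPKM in the CvP and 34.0 RPKM in the Epi, mostly from *Ltf*, the lactoferrin gene that glands and other epithelia also express, with 1048 and 28.5 RPKM. Next in level were *S100a9*, with 31.4 and 3.45 RPKM, and *S100a8*, with 22.1 and 1.37 RPKM. *Csf3r*, the receptor that drives neutrophil formation, had 2.20 and 0.01 RPKM, while the granule protease gene *Elane* was at 0 in both. The markers *Ngp* and *Camp* had 0.03 and 0.12 RPKM in the CvP, and 0.03 and 0 RPKM in the Epi. The part of neutrophils in the *Aqp9* values was not tested.

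*Aqp7*, the glycerol channel through which fat cells release glycerol, had 0.06 RPKM in the CvP and 0.07 RPKM in the Epi, from about 4 and 5 reads. The ratio of 0.857 had an interval from 0.156 to 3.66, so that a difference of 3-fold toward either side lay within it. With reads from the listed length, about 6 and 7, the interval was 0.234 to 2.93 and ended just below 3. *Aqp7* occupies bases 40980107 to 40995169 of chromosome 4, on the strand of *Aqp3*. Of the 9 adipocyte markers 3 passed the filter. Above 3-fold toward the Epi was 1 and toward the CvP 0, beside 1.96% and 15.9% of all rows past the filter. The 9 summed to 4.43 and 8.23 RPKM. The fatty acid carrier gene *Fabp4* had 0.17 and 3.24 RPKM and passed through the Epi alone. *Pparg*, the highest of the 3, had 3.14 and 4.02 RPKM, and *Lpl* had 1.08 and 0.77 RPKM, the higher in the CvP. The defining fat cell genes *Adipoq* and *Plin1* were at 0 in the CvP. In the Epi they were at 0.03 and 0.02 RPKM, from about 1 read each.

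The enzymes that make and use the glycerol carried by *Aqp3*, *Aqp7* and *Aqp9* did not share one direction. Of 16 listed genes of glycerol metabolism 13 had a row, and all 13 passed the filter. The median log2 ratio was 0.53 against 0.50 over all rows past the filter. Above 3-fold toward the CvP were 2 of the 13, and 0 toward the Epi, beside 15.9% and 1.96% of those rows. Both genes encode glycerol-3-phosphate dehydrogenases, *Gpd1l* with 9.83 against 1.06 RPKM, a ratio of 9.27 (7.73 to 11.2), and *Gpd1* with 1.71 against 0.22 RPKM, a ratio of 7.77 (4.70 to 13.8). The glycerol kinase gene *Gyk*, whose enzyme traps glycerol inside the cell, had 17.4 RPKM in the CvP and 17.7 RPKM in the Epi, as even as *Aqp3*. Hormone-sensitive lipase, *Lipe*, had 7.26 and 14.6 RPKM and was the lower in the CvP.

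*Aqp2*, the vasopressin-controlled channel of the kidney collecting duct, had 1 read in the CvP (0.03 RPKM) and 0 in the Epi, where 3 reads would be 0.0759 RPKM and the exact Poisson interval reaches 0.0933 RPKM. No ratio is given at such counts. Its row lies on chromosome 15 from 99409487 to 99414976 on the plus strand. *Mip*, the lens member of the family (once called *Aqp0*), was the only other aquaporin gene with a row. It had 0.05 RPKM in both libraries, from 3 reads each, and lies on chromosome 10 from 127662894 to 127668867 on the plus strand. *Aqp6* and *Aqp12* had no row in the table used and were not analysed here.

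In order of level, the CvP ran from *Aqp3* to *Aqp5* and *Aqp11*, then *Aqp4*, and then *Aqp9*, *Aqp7*, *Aqp2* and *Aqp1*. Neighbours did not differ beyond their counting intervals between *Aqp5* and *Aqp11*, or from *Aqp9* downward. In the Epi the order was *Aqp3*, then *Aqp5*, *Aqp1* and *Aqp9*, whose neighbouring intervals overlapped, and then *Aqp7*, *Aqp11*, *Aqp4* and *Aqp2*, likewise overlapping from one to the next. *Aqp11* thus moved from the third place to the sixth and *Aqp1* from the eighth to the third. Summed over the 8 genes, aquaporin RNA was 320 RPKM in the CvP and 308 RPKM in the Epi, a ratio of 1.04, and *Aqp3* made up 95.8% and 99.4% of it. Without *Aqp3* the sums were 13.3 and 1.72 RPKM, a ratio of 7.76. On the deposited scale and listed lengths the even total was therefore that of *Aqp3*. On that scale the difference between the libraries lay in the small remainder.

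Water that crosses a membrane changes the volume of the cell, and genes of cell volume and osmotic response were counted last. Of 13 listed genes, all with a row, 12 passed the filter. The median log2 ratio was 0.76, beside 0.50 over all rows past the filter. Above 3-fold toward the CvP was 1 of the 12, and toward the Epi 0, beside 15.9% and 1.96% of those rows. That gene was *Slc12a2*, which the fluid secretion list also holds. *Nfat5*, the transcription factor of the osmotic response, had 13.7 and 6.73 RPKM, and the kinase gene *Wnk4*, which sets chloride cotransport, had 18.7 and 28.3 RPKM.

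**Figure D4:**
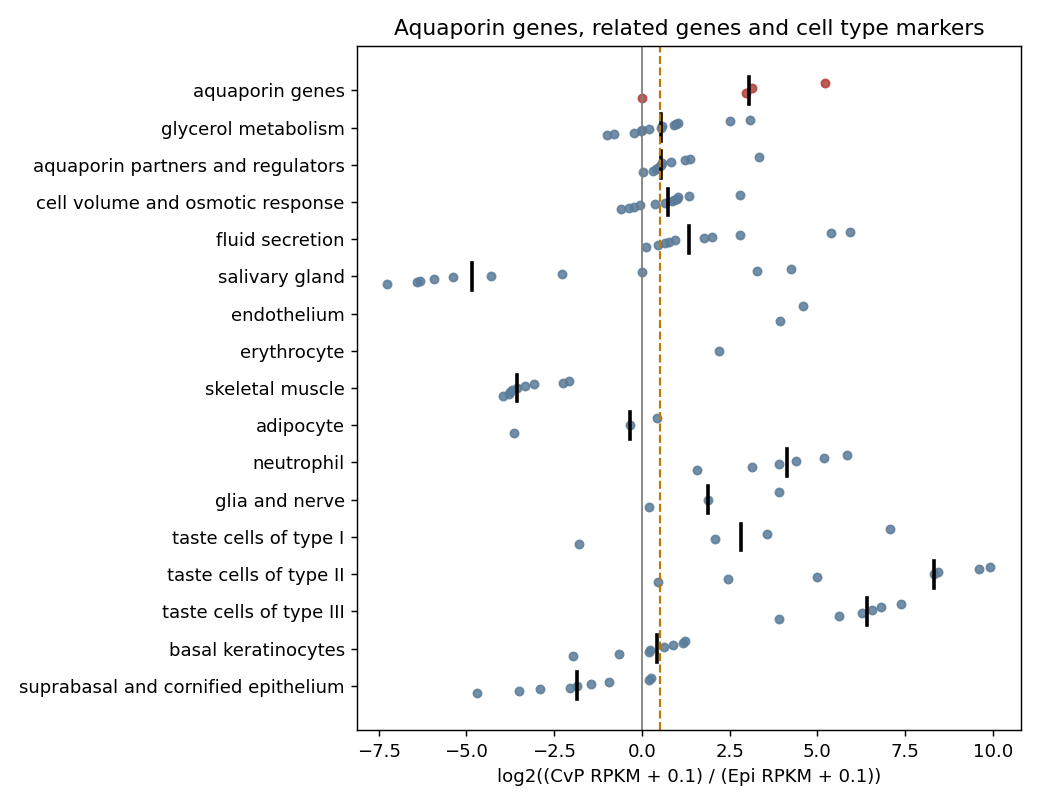
Log2 of the CvP/Epi ratio (horizontal axis), with 0.1 added to each RPKM, for single genes of each list that passed the filter (points), with the list median as a black bar where 3 or more genes passed and the median of all rows past the filter, 0.50, as a dashed line. The median of glycerol metabolism lies at 0.53, that of fluid secretion at 1.36, that of skeletal muscle at -3.55 and that of salivary gland at -4.85.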

How the data were processed

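The authors mapped single-end reads of 75 bases with Bowtie 0.12.7 to NCBI37/mm9 and deposited RPKM values from ERANGE on an exon model per gene. How multiply matching reads were counted, and on which annotation, is not given in the sources used here. The labels put 1 pooled library in each tissue. The deposited ratio column was not used.

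Members and gene lists were chosen with earlier results of these data known. Ratios are quotients of RPKM as deposited, with no pseudocount, and a gene was called above 3-fold among rows with 1 RPKM or more in the CvP or the Epi. Depth came from the step of 1 read in 163 rows of 0.1 kb (0.352 RPKM in the CvP, 0.358 RPKM in the Epi). With it, values under 20 reads in rows of up to 0.5 kb were whole to within 0.15 read in 98.2% and 98.4% of cases. Reads per gene are approximate and used the listed length or the longest GENCODE M1 coding transcript, whichever was shorter. Intervals of ratios are exact (Clopper-Pearson) and those of levels exact Poisson on the listed length. Of 17545 rows with a gene in that annotation, 17342 (98.8%) overlapped it on the same strand. No other annotated gene overlapped any of the 8 members.

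By rule the text names all aquaporin genes, the 3 nearest to a member of 10 RPKM or more, pathway genes with 10 RPKM or more and over 3-fold apart, and up to 3 of the highest genes of a marker list. *Slc1a3*, *Pigr*, *Cftr*, *Trpv4*, *Avpr2*, *Dtna*, *Dmd*, *Gfap*, *Cdh5*, *Tie1*, *Flt1*, *Kdr*, *Eng*, *Csf3r*, *Elane*, *Ngp*, *Camp*, *Adipoq*, *Plin1*, *Gpd1l*, *Gpd1*, *Gyk*, *Lipe*, *Nfat5* and *Wnk4* were chosen after their values were seen. The 17 lists were other aquaporins, glycerol metabolism, partners and regulators, cell volume, fluid secretion, and markers of salivary gland, endothelium, erythrocyte, skeletal muscle, adipocyte, neutrophil, glia and nerve, taste cells of type I, II and III, and basal and suprabasal epithelium. Some genes of the lists are counted but not reported here by name. Statistics were tested on simulated data. Python 3.11.15 was used with numpy 2.4.6, pandas 2.3.3, scipy 1.17.1, Biopython 1.88 and matplotlib 3.10.9. Alternatives were other filters, folds, pseudocounts, scalings and gene lengths.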

Additional observations from a re-analysis of the deposited data

How the results depend on the processing

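No paired analysis was possible because the CvP and the Epi had 1 library each. Over 7 member ratios and 5 alternatives, 26 of 35 values stayed within the main counting interval, 9 did not, and 0 called ratios changed direction. The count of members above 3-fold in the CvP ranged from 2 to 4 over 11 settings and was unchanged in 8. The corresponding Epi count of 0 became 1, through *Aqp1*, with no filter, with a filter of 0.3 RPKM and with both libraries rescaled to one sum. The count of 0 members with a CvP RPKM above 10 and a ratio above 3 became 3 at a CvP minimum of 1 RPKM and 2 at 3 RPKM. The median log2 ratio of 3.06 was 0.19 with no filter, 1.53 with 1 and 3.93 with 0.01 as the pseudocount, 2.66 divided by the median ratio and 1.80 after rescaling. Rescaling raised every RPKM and so let 6 members instead of 4 past the filter of 1 RPKM. In an alternative chosen after seeing the data, with rescaling but the filter on the deposited RPKM, the median was 3.77 and the counts were 3 in the CvP and 0 in the Epi. At this depth, differences in *Aqp2*, *Aqp7* and *Mip*, with 5 estimated reads or fewer in both libraries, could not be measured.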
